A study of Homo sapiens with 3 samples.

Results

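RAB GTPases, the small GTP-binding proteins that direct membrane traffic, were examined in Caco-2 cells depleted of the transcript OCC-1. The members were all probe sets (groups of array probes read as a single value) whose only gene symbol was RAB followed by a number and at most 1 letter. This gave 161 of 49395 probe sets, for 57 genes. Another 12 probe sets named a RAB gene together with a further gene and were left out, so RAB1B, RAB4B, RAB6C, RAB24 and RAB43 had no member. Caco-2 is an established human colorectal cancer line that can form an enterocyte-like layer.

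The arrays held total RNA from 3 cultures, each carrying a lentiviral short hairpin RNA (shRNA). The control (shCTRL, n = 1) carried a non-target hairpin, and the OCC-1 knockdown lines (n = 2), here line 1 and line 2, carried different hairpins against OCC-1, shOCC-1-1 and shOCC-1-2. All 3 shared growth in MEM with 20% serum, 5 days of puromycin selection (1 µg per ml), and 24 h free of the drug before RNA was taken. Each line gave 1 array, and the labels do not say whether a line was a clone or a mixed population.

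RAB proteins cycle between an inactive GDP-bound form and an active GTP-bound form that sits on a membrane and recruits effectors, such as tethers, motors and coat adaptors. Guanine nucleotide exchange factors (GEFs) switch them on, GTPase-activating proteins (GAPs) switch them off, and a lipid anchor added by RAB geranylgeranyl transferase lets them bind membranes. Each RAB marks its own compartments, and in polarised intestinal epithelium RAB8, RAB11 and RAB25 are known for their part in apical traffic.

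The targeted transcript (symbol C12orf75) read 1219 in the control and 518 and 397 in lines 1 and 2, in units of array intensity on a linear scale. Of the intestinal epithelial markers 13 of 13 were above the intensity filter, a mean log2 of 7.52 (intensity 184), the median of all probe sets. Their summed intensity was 38858 in the control and 41475 and 41515 in lines 1 and 2. In limma EPCAM and CDH1 rose (adjusted p = 0.0090 and 0.021) and FABP1 fell (adjusted p = 0.040), and the part of this in the RAB values was not tested. Above the filter were also 3 of 6 fibroblast markers, 2 of 5 leukocyte markers (LCP1 and CD14) and 1 of 5 endothelial markers. The summed intensity of the fibroblast markers was 1130 to 1151 over the 3 arrays, that of the leukocyte markers 2210 to 2532 and that of the endothelial markers 730 to 791, and the part of other cell types in the results was not tested. In such bulk RNA, fewer expressing cells and less RNA per cell cannot be told apart. The arrays' background control probe sets, ordered by their number of G and C bases, differed from the control by 0.06 to -0.37 on the log2 scale in line 1 and by 0.04 to -0.23 in line 2. None of them was higher than the control by more than 0.06. The part of base composition in the RAB values was not tested.

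Most RAB genes differed little from the control. Of the 57 genes 42 were above the filter, taking the brightest probe set of each, and 30 of these (71.4%) lay within 1.2-fold of the control in both lines, against 74.8% of all genes. The median log2 difference of the 42 genes was 0.00029 in line 1 and 0.0064 in line 2, beside -0.03 and -0.02 over all 11329 genes. A gene was called by size when it was at least 1.5-fold from the control the same way in both lines, which share that control array. By this rule 1 of the 42 genes was higher (RAB23) and 0 were lower, beside 1.36% and 0.159% of all genes. RAB23 was under the filter in the control and was kept only through the knockdown arrays, where it was high. At 1.3-fold RAB8B, RAB11B and RAB12 joined it, which makes 4 of 42 higher and 0 lower, against 5.31% and 0.936% of all genes. At 2-fold 0 of 42 were higher or lower, beside 0.0706% and 0.0353%.

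In limma, which set both knockdown arrays against the control, 8 of the 42 RAB genes rose at an adjusted p of 0.05, beside 9.63% of all genes. They were RAB1A, RAB6A, RAB8B, RAB11B, RAB12, RAB18, RAB23 and RAB33B. RAB23 and RAB33B lay under the filter in the control and were kept only through the knockdown arrays, where they were high. None fell, beside 3.06% of all genes, with 2 lower at an unadjusted p under 0.05 (RAB17 and RAB32). The share of RAB genes that rose, 19.0%, depended on how the probe sets were read. With genes averaged over all their probe sets, 3 of 37 (8.11%) rose and 0 fell, beside 6.96% and 3.33% of all genes. The 3 were RAB1A, RAB10 and RAB12. That average also takes in sets under the filter, so a call lost by it need not mean that brighter sets disagreed. With no intensity filter 9 of 57 rose and 1 fell, beside 8.25% and 3.93%. These p-values rest on 1 residual degree of freedom, measure only the spread between 2 arrays with different hairpins, and assume that the lone control varies like them. The largest gap between the lines among the 42 genes was 0.29 on the log2 scale, for RAB40B.

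**Figure D1:**
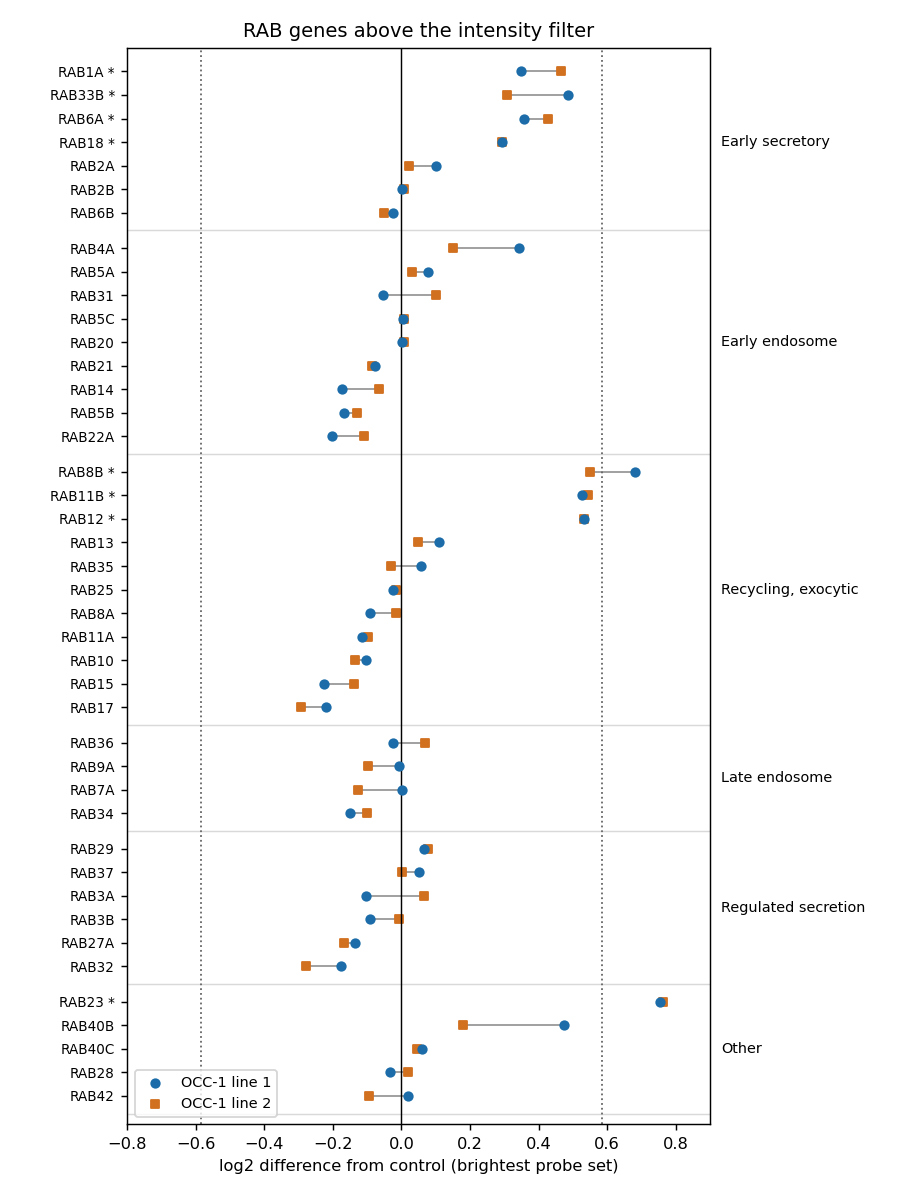
Log2 difference from the control (x axis) of the 42 RAB genes above the intensity filter, by role, for line 1 (circles) and line 2 (squares), 1 array each, read by the brightest probe set. Dotted lines mark 1.5-fold and stars the 8 genes past limma, beside 9.63% of all genes. RAB23 alone lies beyond 1.5-fold in both lines. RAB23 and RAB33B passed the filter only through the knockdown arrays.

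The largest RAB difference read by a brightest probe set was that of RAB23, a negative regulator of Hedgehog signalling. This probe set read 138 in the control and 232 and 234 in lines 1 and 2. Both knockdown arrays were thus above the control and alike, at 1.69-fold and 1.70-fold (log2 difference 0.76 ± 0.0059 SD, n = 2; limma adjusted p = 0.0046). Its control value lies under the filter, so it was kept through the knockdown arrays, where it was high. The 3 other RAB23 probe sets, all under the filter, were lower in both lines. They read 187, 169 and 172 in the control, line 1 and line 2, then 146, 141 and 140, and last 91.6, 88.8 and 82.9. Of all 22318 probe sets under the filter with a single gene symbol, 11516 were likewise lower in both lines and 5161 higher. Averaged over its probe sets, RAB23 fell below the filter and was no longer called.

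RAB10, which carries vesicles from the Golgi and recycling endosomes to the plasma membrane, was the other gene with a probe set past 1.5-fold. Of 95 RAB probe sets above the filter 2 were called higher by size, those of RAB23 and RAB10, and 0 lower, beside 1.41% and 0.11% of all 22670 probe sets. At 1.3-fold 6 RAB sets were higher and 0 lower, beside 5.5% and 0.723%, and at 2-fold 0 either way, beside 0.0662% and 0.0176%. The RAB10 probe set read 648 in the control and 1153 and 1178 in lines 1 and 2, which is 1.78-fold and 1.82-fold (log2 difference 0.85 ± 0.08 SE; limma adjusted p = 0.0013 over all probe sets). The brighter RAB10 probe set read 1270, 1182 and 1155 in the same order, slightly lower in both lines (log2 difference -0.12, 95% interval -0.30 to 0.05). The called set ends in _s_at, whereas the brighter set ends in _at. The array maker gives the suffix _s_at to probes that match several transcripts, which may be of different genes. The brightest sets of RAB8B, RAB11B, RAB18 and RAB33B, all past limma, also end in _s_at. Those of RAB1A and RAB6A, past limma too, end in _x_at, a suffix for probes that may match other genes. Among brightest sets that did not pass, _s_at is the suffix of RAB2B, RAB5A, RAB5C, RAB7A, RAB8A, RAB13, RAB17, RAB28, RAB31, RAB37 and RAB40C. The brightest sets of RAB21 and RAB36 end in _x_at. Of the 95 RAB probe sets above the filter 24 end in _s_at and 19 in _x_at. The part of the suffix in the calls was not tested.

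Of the recycling and exocytic RABs, 11 genes that were all above the filter, 3 rose in limma and 0 fell, beside 9.63% and 3.06% of all genes. They were RAB8B, RAB11B and RAB12, of which RAB12 alone was still called with probe sets averaged. RAB8B, a close relative of RAB8A in transport from the trans-Golgi to the plasma membrane, read 622 in the control and 997 and 910 in lines 1 and 2. That is 1.60-fold and 1.46-fold, so only line 1 passed 1.5-fold (log2 difference 0.61 ± 0.09 SD, n = 2; limma adjusted p = 0.0086). Its second probe set was higher by less, at 338, 426 and 395. The pair under the filter read 166, 162 and 151, and 130, 123 and 129, and averaged over all 4 sets the difference was 0.19 (adjusted p = 0.11). RAB8A itself, read by a single probe set, was at 1121 in the control and 1052 and 1109 in lines 1 and 2 (log2 difference -0.05, 95% interval -0.24 to 0.13).

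RAB11B and RAB11A direct slow recycling from the endosomal recycling compartment to the cell surface. The brightest RAB11B probe set read 1155 in the control and 1662 and 1682 in lines 1 and 2, 1.44-fold and 1.46-fold (limma adjusted p = 0.0085). A RAB11B set of similar brightness did not follow, with 1265, 1194 and 1233, nor did the third set above the filter, with 213, 188 and 179. The remaining 4, all under the filter, were lower in both lines, as were 37 of the 66 RAB sets under it. Averaged over all 7 RAB11B sets the difference was -0.033. RAB11A read 3224, 2977 and 3010 by its brightest set, below the control in both lines (log2 difference -0.11, 95% interval -0.28 to 0.07). The 3 dimmer sets were higher in both lines, at 1856, 1945 and 1998, at 808, 976 and 1080, and at 186, 193 and 197. The second of these rose in limma over all probe sets (log2 difference 0.35 ± 0.09 SE; adjusted p = 0.033). RAB25, the epithelial member of the RAB11 group, was level, with 2262 in the control and 2223 and 2239 in lines 1 and 2 (95% interval of the log2 difference -0.19 to 0.15).

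RAB12, a RAB of recycling endosomes and a substrate of the kinase LRRK2, read 541 in the control and 783 in both lines, 1.45-fold (limma adjusted p = 0.0085). Its second probe set was also higher, with 518, 664 and 654 (adjusted p = 0.020 over all probe sets), and the third was not, with 365, 351 and 354. RAB17, an epithelial RAB of transcytosis, had the lowest difference of the 42 genes, with 860 in the control and 738 and 701 in lines 1 and 2. Both lines lay below the control (log2 difference -0.26 ± 0.05 SD, n = 2), but the limma adjusted p was 0.074. It was 0.036 after quantile normalization and 0.047 with no intensity filter. RAB15, read at 1403, 1201 and 1274, did not pass (adjusted p = 0.17), and RAB13 and RAB35 had differences of 0.08 and 0.01.

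The early secretory RABs, which serve traffic between the endoplasmic reticulum and the Golgi and within the Golgi, numbered 11 measured genes. Of these 7 were above the filter, and 4 of the 7 rose, beside 9.63% of all genes. With probe sets averaged, of the 4 only RAB1A was still called, and RAB33B had passed the filter through the knockdown arrays alone. RAB1A, which acts in transport from the endoplasmic reticulum to the Golgi, was higher by every probe set. The brightest read 2028 in the control and 2584 and 2800 in lines 1 and 2, or 1.27-fold and 1.38-fold (log2 difference 0.41 ± 0.08 SD, n = 2; limma adjusted p = 0.024). The next pair read 2025, 2570 and 2629, and 2023, 2445 and 2563, and the dimmest 363, 446 and 432. All 4 passed limma over all probe sets, with adjusted p from 0.015 to 0.047. RAB1A and RAB1B are close in sequence, and 3 further probe sets that name both were not used.

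RAB6A, a Golgi RAB of retrograde transport, read 1562 in the control and 2001 and 2102 in lines 1 and 2, 1.28-fold and 1.35-fold (limma adjusted p = 0.022). As given above it ends in _x_at, and 2 sets that also name RAB6C and RAB6D were not used. Its other sets above the filter read 290, 290 and 285, and 253, 295 and 303. Of the 5 under the filter 4 were lower in both lines, and averaged over all 8 sets its difference was 0.01 (adjusted p = 0.91). RAB18, which acts at lipid droplets and the endoplasmic reticulum, had 10 probe sets, the most of any RAB gene. The brightest read 1345 in the control and 1647 in both lines, 1.22-fold (limma adjusted p = 0.046, and 0.056 after quantile normalization and 0.14 with probe sets averaged). The third rose further, from 731 to 1100 and 1034, and the other 6 above the filter had mean differences from -0.09 to 0.18. RAB33B, a Golgi RAB that binds the autophagy protein ATG16L1, read 162, 227 and 201 (limma adjusted p = 0.038). Like RAB23 it lay under the filter in the control and was kept through the knockdown arrays.

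RAB2A, RAB2B and RAB6B, of the same group, had log2 differences of 0.06, 0.0043 and -0.04. RAB6B, the neuronally enriched form of RAB6, read 397, 390 and 383 (95% interval of the log2 difference -0.21 to 0.14). RAB19, RAB30, RAB33A and RAB41 were under the filter.

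**Figure D2:**
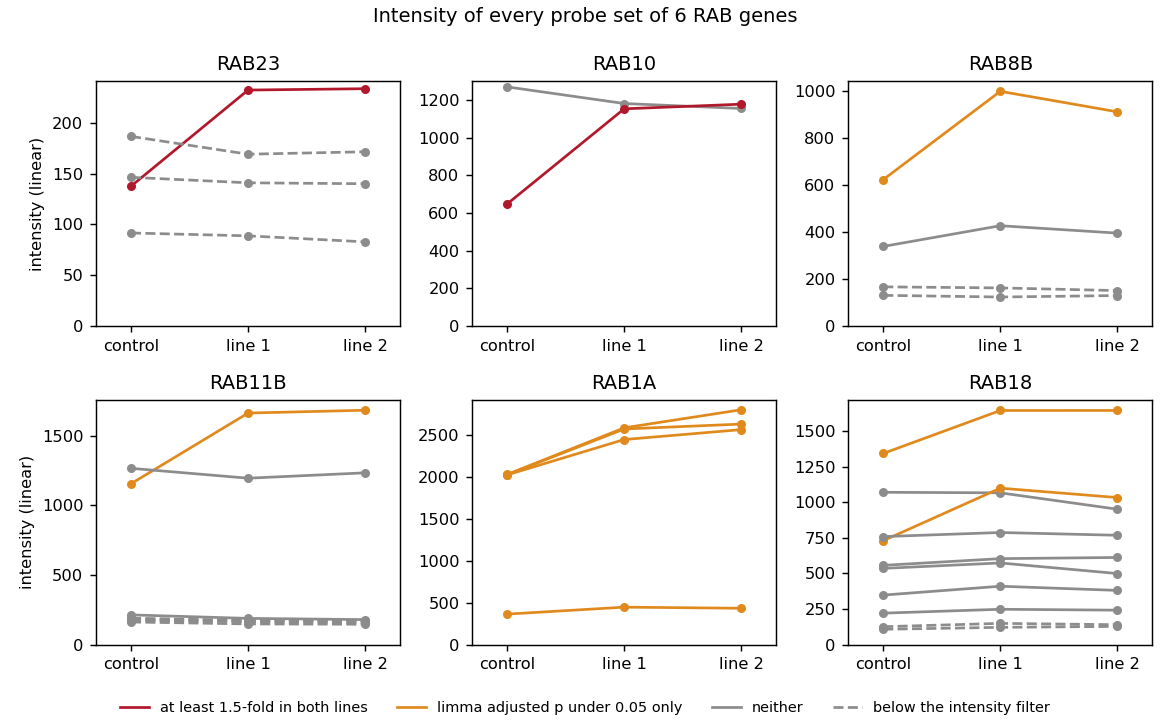
Intensity on a linear scale (y axis) of every probe set of 6 RAB genes on the control, line 1 and line 2 arrays; each line joins the values of a probe set, and dashed lines are probe sets under the intensity filter. All 4 RAB1A sets were higher in both lines, whereas RAB23, RAB10 and RAB11B each had a single set that was higher.

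Of the 9 early endosomal RABs, all above the filter, 0 were called by size, beside 1.36% of all genes higher and 0.159% lower, and 0 passed limma, beside 9.63% and 3.06%. Both counts are near that background. RAB5A, the main organiser of early endosome fusion, read 1482 in the control and 1564 and 1515 in lines 1 and 2 (log2 difference 0.05, 95% interval -0.12 to 0.23). Its relatives RAB5B, at 779, 694 and 712, and RAB5C, at 1267, 1271 and 1275, had differences of -0.15 and 0.0065. RAB4A, of fast recycling, was the highest of the group, with 1822 in the control and 2313 and 2024 in lines 1 and 2. It was 1.27-fold and 1.11-fold higher, so the lines differed, and its limma adjusted p was 0.14. RAB14, RAB20, RAB21, RAB22A and RAB31 lay between -0.15 and 0.02.

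Late endosomal RABs were also near the control, with 4 of 6 genes above the filter and log2 differences from -0.12 to 0.02. RAB7A, which drives the late endosome to the lysosome, read 1580 in the control and 1580 and 1446 in lines 1 and 2 (log2 difference -0.06, 95% interval -0.26 to 0.14). Its other probe sets read 1425, 1248 and 1277, and 908, 833 and 801, below the control in both lines. RAB34, the lowest of the group, read 257, 231 and 239 (adjusted p = 0.31). RAB9A, of transport from late endosomes to the Golgi, had a difference of -0.05, and RAB36 of 0.02, while RAB7B and RAB9B were under the filter.

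Among the RABs of regulated secretion and lysosome-related organelles 6 of 11 genes were above the filter and 0 passed limma, beside 9.63% of all genes higher and 3.06% lower, so the count is near that background. RAB27A, which docks secretory lysosomes and exosome-bearing endosomes, read 213 in the control and 194 and 190 in lines 1 and 2 (log2 difference -0.15, 95% interval -0.33 to 0.03). Its other 5 probe sets were under the filter. RAB32, of melanosomes and mitochondria, was the lowest, with 608, 538 and 501 (log2 difference -0.23 ± 0.07 SD, n = 2; limma adjusted p = 0.11). RAB29, a partner of LRRK2, read 628, 657 and 662 by its brightest set (adjusted p = 0.55), but the next pair in brightness was higher, at 294, 370 and 352, and at 267, 324 and 322. Both of the latter rose in limma over all probe sets (adjusted p = 0.038 and 0.046). RAB3A, the synaptic vesicle RAB, went opposite ways in the lines, with 554 in the control and 516 and 581 in lines 1 and 2, and was the gene most raised in line 2 over line 1, by 1.13-fold.

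Of the remaining genes RAB40B, a RAB with a SOCS box that joins ubiquitin ligases, differed most between the lines. It read 307 in the control and 426 and 348 in lines 1 and 2, so that line 1 was 1.23-fold above line 2 (log2 difference from the control 0.33 ± 0.21 SD, n = 2; limma adjusted p = 0.12, and 0.044 with no intensity filter). RAB40C, with the same box, was at 0.05. RAB28, a ciliary RAB, was at -0.0071 by its brightest set, while its dimmest set read 196, 248 and 256 and rose in limma over all probe sets (adjusted p = 0.017). RAB42 was at -0.04.

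The 15 genes with no probe set above the filter held 26 probe sets, with mean log2 differences from -0.25 to 0.14. Besides those named they were RAB3C, RAB3D, RAB6D, RAB26, RAB27B, RAB38, RAB39A, RAB39B and RAB40A. At such intensities little is left above the background, so these values do not show whether the transcripts differed. Over all 66 RAB probe sets under the filter the medians were -0.04 in both lines, beside -0.05 and -0.02 for all probe sets under it.

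Probe sets of the same RAB gene often disagreed. In 26 genes at least 2 probe sets were above the filter, and in 16 of them these sets had differences of both signs on the mean of both lines. The sets were all higher in 6 genes (RAB1A, RAB2A, RAB4A, RAB5A, RAB8B and RAB13) and all lower in 4 (RAB3B, RAB6B, RAB7A and RAB22A). All sets of a gene had the same sign in 38.5% of these RAB genes and in 56.3% of all genes with at least 2 such sets, the median number of sets being 3 in both. The gap between the highest and lowest set reached 1.5-fold in 3 RAB genes (11.5%), RAB10 with 0.97 on the log2 scale, RAB11B with 0.75 and RAB18 with 0.63, beside 6.80% of all such genes. No test was made of these shares. Of the 95 RAB probe sets above the filter 18 rose in limma over all probe sets, beside 11.3%, and 0 fell, beside 3.92%, with 5 lower at an unadjusted p under 0.05.

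**Figure D3:**
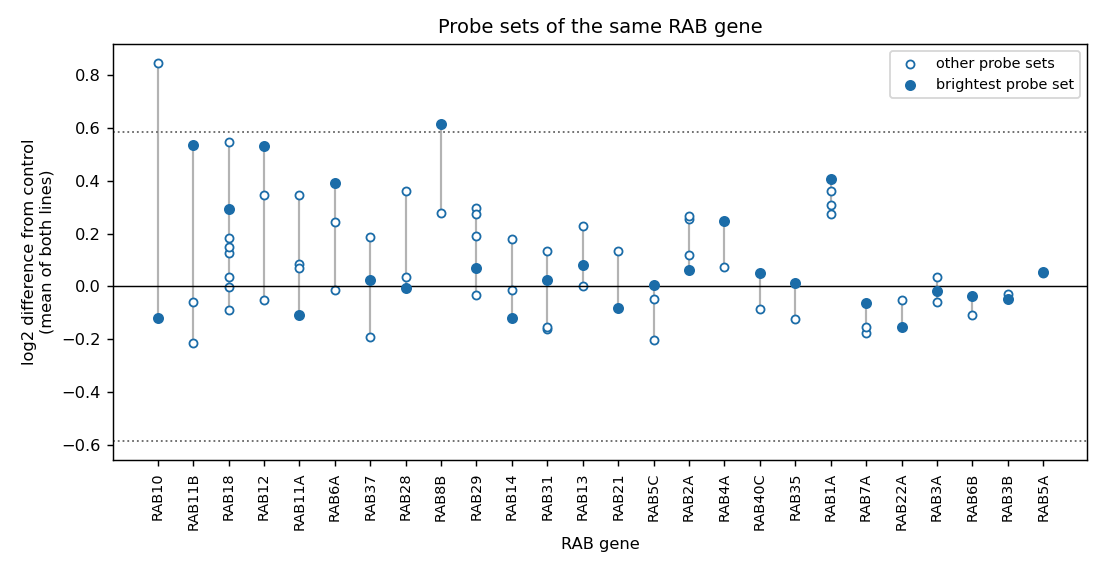
Mean log2 difference of both lines from the control (y axis) for each probe set above the filter of the 26 RAB genes with at least 2 such sets (x axis, ordered by the gap between the highest and lowest set); filled points are the brightest set and dotted lines mark 1.5-fold. RAB10 has the widest gap, 0.97, and in RAB1A all 4 sets lie between 0.28 and 0.41.

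The stretches before the transcription start are shown for the genes with a probe set at least 1.3-fold higher in both lines (RAB23, RAB10, RAB8B, RAB11B and RAB18; RAB12 had no entry) and for RAB17, the lowest gene, to let them be read side by side. Each is the 250 bases upstream of a start annotated by RefSeq (GRCh38.p14), 5′ to 3′ on the strand of the gene, and RAB23 has 2 starts. Capitals mark matches, on either strand, to any of 6 motifs. These were the GC box GGGCGG, the CCAAT box (its own letters), the TATA box TATAAA, the E box CACGTG, the ETS motif CCGGAAG and the cyclic AMP response element TGACGTCA. Matches may overlap and were then counted separately.
RAB23, upstream start (chr6:57222308-57222557, - strand): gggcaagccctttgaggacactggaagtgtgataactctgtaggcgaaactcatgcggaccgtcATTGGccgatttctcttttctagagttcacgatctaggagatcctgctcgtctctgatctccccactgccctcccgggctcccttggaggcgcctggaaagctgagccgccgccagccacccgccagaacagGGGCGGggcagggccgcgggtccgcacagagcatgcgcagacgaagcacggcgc
RAB23, downstream start (chr6:57221463-57221712, - strand): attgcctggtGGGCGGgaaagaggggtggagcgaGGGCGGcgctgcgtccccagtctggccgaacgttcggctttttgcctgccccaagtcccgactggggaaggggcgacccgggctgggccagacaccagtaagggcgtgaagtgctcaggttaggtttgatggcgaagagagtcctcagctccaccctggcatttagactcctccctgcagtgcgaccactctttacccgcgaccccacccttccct
RAB10 (chr2:26033834-26034083, + strand): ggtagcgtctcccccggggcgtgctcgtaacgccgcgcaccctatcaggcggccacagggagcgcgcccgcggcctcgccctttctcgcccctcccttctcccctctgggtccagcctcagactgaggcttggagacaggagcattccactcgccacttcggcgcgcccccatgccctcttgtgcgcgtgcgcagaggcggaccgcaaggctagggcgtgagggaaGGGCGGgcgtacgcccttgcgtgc
RAB8B (chr15:63189356-63189605, + strand): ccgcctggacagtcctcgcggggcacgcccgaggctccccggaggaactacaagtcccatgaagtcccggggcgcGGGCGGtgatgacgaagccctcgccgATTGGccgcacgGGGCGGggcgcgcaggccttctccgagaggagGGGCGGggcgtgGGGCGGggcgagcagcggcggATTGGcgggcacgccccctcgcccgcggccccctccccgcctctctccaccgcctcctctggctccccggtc
RAB11B (chr19:8390110-8390359, + strand): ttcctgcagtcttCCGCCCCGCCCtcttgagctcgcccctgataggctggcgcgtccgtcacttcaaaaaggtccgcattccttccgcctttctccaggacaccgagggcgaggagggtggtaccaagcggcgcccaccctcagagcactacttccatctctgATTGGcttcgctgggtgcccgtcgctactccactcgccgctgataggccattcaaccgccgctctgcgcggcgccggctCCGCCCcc
RAB18 (chr10:27504054-27504303, + strand): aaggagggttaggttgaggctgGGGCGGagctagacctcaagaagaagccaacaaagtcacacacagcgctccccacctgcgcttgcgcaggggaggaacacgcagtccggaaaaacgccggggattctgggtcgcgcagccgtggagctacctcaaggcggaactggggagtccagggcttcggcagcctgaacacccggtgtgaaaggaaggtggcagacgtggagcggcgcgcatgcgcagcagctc
RAB17 (chr2:237590735-237590984, - strand): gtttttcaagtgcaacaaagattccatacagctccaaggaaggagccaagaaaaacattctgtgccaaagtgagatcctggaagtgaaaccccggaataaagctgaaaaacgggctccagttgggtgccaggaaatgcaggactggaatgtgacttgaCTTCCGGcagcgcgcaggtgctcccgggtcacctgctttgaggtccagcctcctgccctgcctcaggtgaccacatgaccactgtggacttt

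The windows of the 5 genes shown for a probe set at least 1.3-fold higher held 62.8% to 77.2% G and C. They had 16 to 33 CG dinucleotides and at least 1 GC box each. As given above, the other probe sets of RAB23, RAB10 and RAB11B were lower in both lines. The medians were 63.6% and 17 over all RAB windows and 58% and 11 over all windows. RAB8B had 4 GC boxes and RAB11B had 3. RAB17 had 52.8% G and C, 6 CG dinucleotides, 0 GC boxes and 1 ETS motif. RAB32, the next lowest gene and not shown, had 82.0% G and C, 36 CG dinucleotides and 2 GC boxes. For RAB6A, which rose in limma and is not shown, the upstream window held 0 GC boxes and the downstream one 1. Of the 63 windows found for 45 RAB genes, 69.8% held a GC box and 30.2% a CCAAT box, beside 42.6% and 32.0% of all 35116 windows. TATAAA was found in 7.94% against 10.7%, CACGTG in 6.35% against 6.35%, CCGGAAG in 9.52% against 8.52% and TGACGTCA in 1.59% against 1.65%. Windows of the same gene can overlap, and the list of all windows includes non-coding genes. A match describes the letters only, and the arrays did not measure these stretches.

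The proteins that load, switch and read RABs were close to the background of all genes. Of 156 measured partners 135 were above the filter, and 0 were called by size, beside 1.36% of all genes higher and 0.159% lower. At 1.3-fold 7 of the 135 were higher and 1 was lower (OPTN), beside 5.31% and 0.936%. In limma 13 rose (9.63%) and 4 fell (2.96%), beside 9.63% and 3.06% of all genes, with medians of -0.0090 and 0.0014 in lines 1 and 2. Of the 6 genes for lipid attachment and membrane extraction only CHML rose. CHML, the RAB escort protein 2 that presents new RABs for lipidation, read 451 in the control and 606 and 592 in lines 1 and 2 (limma adjusted p = 0.017). The guanine nucleotide dissociation inhibitor GDI2 read 5502, 5760 and 5743 (adjusted p = 0.59), and RABIF 214, 235 and 250 (adjusted p = 0.18).

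Among the GEFs 4 of 44 rose and 1 fell, near the 9.63% and 3.06% of all genes. RIN2, which activates RAB5, read 932 in the control and 1502 and 1307 in lines 1 and 2. It was 1.61-fold and 1.40-fold higher (limma adjusted p = 0.014), so that line 1 alone passed 1.5-fold. DENND6A, an exchange factor for RAB14, read 399, 574 and 552, and TRAPPC2, of the TRAPP complexes that include the exchange factor of RAB1, read 241, 345 and 328 (adjusted p = 0.011 and 0.012). DENND4C rose as well, with 756, 1015 and 917 (limma adjusted p = 0.045). The GEF that fell, TRAPPC5, is also of the TRAPP complexes and read 1409, 1114 and 1079 (limma adjusted p = 0.026). Among the genes listed as GAPs 3 of 30 rose and 1 fell, again near those shares of all genes. RAB3GAP2 was the one that fell, with 1452, 1207 and 1168 (limma adjusted p = 0.049). TBC1D15, which acts on RAB7, rose, with 396, 530 and 539, as did USP6NL, which acts on RAB5, with 311, 420 and 404. TBC1D23 also rose, with 339, 446 and 429.

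Effectors rose in 5 of 50 cases and fell in 2, near the 9.63% and 3.06% of all genes. ACAP2, which binds RAB35, read 352 in the control and 513 and 492 in lines 1 and 2 (limma adjusted p = 0.010). EXOC8, a subunit of the exocyst, a tether of secretory vesicles, read 335, 458 and 499 (adjusted p = 0.013). EXOC5, of the same complex, also rose, and the other exocyst genes above the filter did not pass limma. EEA1 and OSBPL1A rose too. OPTN, a RAB8 effector and autophagy receptor, was lower, with 1044, 800 and 715 (adjusted p = 0.022). RILP was the other effector that fell, with 296, 237 and 238 (limma adjusted p = 0.036). Of 5 RAB-like genes above the filter 0 passed limma, beside those same shares of all genes. RABL2A read 203, 240 and 249, RABL3 read 304, 275 and 256, and RABL6 read 1322, 1179 and 1187.

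**Figure D4:**
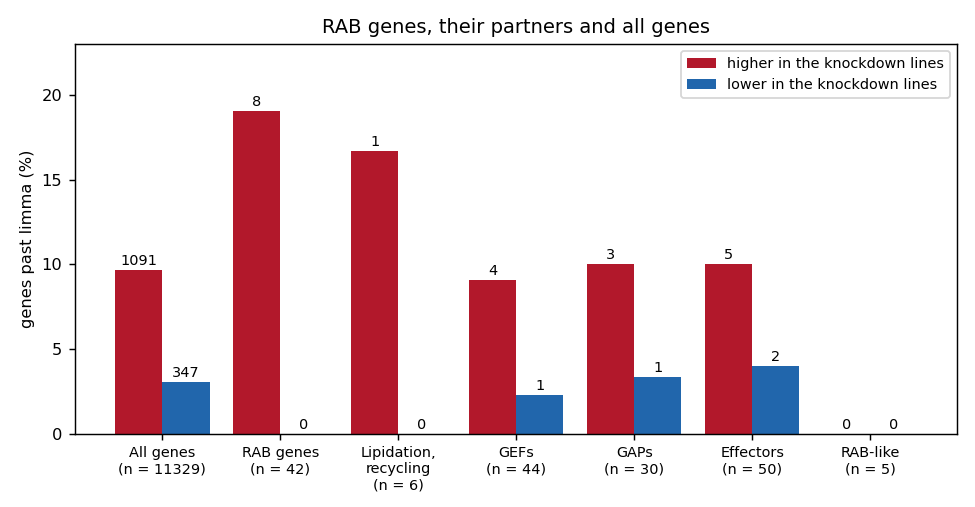
Share of genes above the intensity filter (y axis, %) that were higher (red) or lower (blue) in the knockdown lines at a limma adjusted p of 0.05, for all genes, RAB genes and 5 groups of partners; numbers on the bars are gene counts. GEFs, GAPs and effectors lie near the shares of all genes, 9.63% and 3.06%, and 8 of 42 RAB genes were higher.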

How the data were processed

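Total RNA of 3 Caco-2 cultures was measured on 1 oligonucleotide array each. The authors deposited a linear intensity for each probe set and array. The submitters' processing notes name RMA. Background subtraction and scaling are not given in the sources used here. Intensities were converted to log2, with no further normalization. Gene symbols came from the annotation of the platform, and 161 of 161 member symbols were matched to RefSeq (GRCh38.p14) with 0 changes. Of all probe sets 44988 had 1 gene symbol, 1832 several and 2473 none, and 102 array controls were left out. Genes were read by the probe set with the highest mean, and features with a mean log2 under 7.52 were left out, which kept 11329 genes and 22670 probe sets. limma 3.58.1 (R 4.3.3; lmFit, eBayes, two-sided, Benjamini-Hochberg over the whole table; 6.96 total degrees of freedom) compared knockdown with control, and its intervals are at 95%. The code was tested on simulated data. Python 3.11.15, numpy 2.4.6, pandas 2.3.3 and matplotlib 3.10.9 made the tables and figures. The members, role groups, partner lists and tests were chosen with earlier results of these data known. Genes named with all values were those called by size, in each role group the gene furthest from the control each way by the smaller difference of the 2 lines (same sign in both), the 3 smallest limma p-values each way, 7 fixed genes (RAB1A, RAB5A, RAB7A, RAB8A, RAB11A, RAB25 and RAB27A), the genes most different between the lines, and 3 per partner list. Further genes and probe sets were named where limma called them, after their values were seen. Alternatives were no filter, quantile or cyclic loess normalization, and normexp background correction (offset 50). Others were the mean of all probe sets of a gene, also those under the filter, 1.3-fold and 2-fold, and leaving out each knockdown line.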

Additional observations from a re-analysis of the deposited data

How the results depend on the processing

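The count of RAB genes called by size was 1, and became 0 with probe sets averaged, 4 at 1.3-fold and 0 at 2-fold. Leaving out a knockdown line, which makes the rule looser, gave 1 to 2 genes and, for probe sets, 2 to 4 against 2, all higher. The shares of all genes and probe sets by that looser rule are not given here, so these counts have no background. Probe sets called numbered 6 at 1.3-fold and 0 at 2-fold. RAB genes past limma were 8, and 3 with probe sets averaged, of which 2 (RAB1A and RAB12) were among the 8. Cyclic loess and normexp kept all 8, and quantile normalization kept 7, losing RAB18 and adding RAB17, which was lower. RAB probe sets past limma, 18 higher and 0 lower, became 16 and 1 after quantile normalization and 23 and 1 after cyclic loess. The lower set was that of RAB17 in both. The shares of all genes and probe sets under these normalizations are not given here. The median RAB difference of 0.0037 became -0.020 with no intensity filter, -0.027 after quantile normalization, 0.016 after cyclic loess and -0.014 with probe sets averaged, and was 0.00029 to 0.0064 in single lines. The count of partners called by size, 0, became 8 at 1.3-fold (7 higher and 1 lower of 135, beside 5.31% and 0.936% of all genes), and leaving out a line gave 0 to 1 (RIN2). These partner alternatives were added after seeing the data.

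With probe sets averaged the differences of RAB10 (0.36), RAB11A (0.098) and RAB11B (-0.033) changed sign. RAB3A changed sign after cyclic loess (0.0046) and between single lines (-0.10 to 0.067), and RAB7A between single lines (-0.13 to 0.00044). The cause was not tested. limma could not be run without a knockdown line, since no residual degree of freedom was left. No paired analysis was possible because there was a single control array. The number of arrays limits every value, and remaining background can make differences of dim probe sets look smaller. The background control probe sets themselves differed between the arrays, as given above, and the part of this in dim sets was not tested.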
